A study of Mus musculus with 6 samples.

Results

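The proteasome genes measured on kidney arrays of metformin-treated and saline-treated Pkd1 miR transgenic mice are described here. They were taken as the transcript clusters whose only platform symbol begins with Psma, Psmb, Psmc, Psmd, Psme, Psmf or Psmg and a digit, with pseudogenes left out. The rule found 48 genes, each with 1 cluster, among 30142 genes with a cluster of their own. Of these, 46 encode proteasome subunits, activators, an inhibitor or assembly chaperones. The other two, Psmc3ip and Psme3ip1, carry a matching symbol but encode no subunit. A filter on low values removed Psmb11, so 45 of the 46 were tested. The names Psmb5 and Psme2 stood only on clusters that list several genes and were not analysed here as members.

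The metformin group was 3 female mice given metformin at 150 mg/kg/day by intraperitoneal injection, and the saline group was 3 female mice injected with saline. Injections ran between postnatal days 35 and 63, when the kidneys were taken. Both groups carried the Pkd1 miR transgene, so no animal without it was compared, and the labels do not name the promoter that drives it. The labels call the 3 arrays of a group biological replicates, so p-values measure the spread between those samples.

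The proteasome is the chamber in which cells degrade proteins marked with ubiquitin. Its core is a stack of alpha and beta rings, and 3 beta subunits cut peptide bonds. A regulatory particle with a base of ATPases and a lid binds ubiquitin, removes it and threads the protein into the core. Interferon induces replacement beta subunits and the PA28 activator, which together make the immunoproteasome, known for producing peptides for MHC class I. In the kidney, tubule cells that reabsorb filtered protein and turn over their transporters contain proteasomes alongside lysosomes.

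Array medians were 4.73 to 4.86 in the metformin group and 4.67 to 4.74 in the saline group, and upper quartiles were 7.21 to 7.34 in the metformin group and 7.01 to 7.12 in the saline group (log2). The tissue label was met by kidney markers, with Umod averaging 18.84 in the metformin group and 18.98 in the saline group, and Slc34a1 18.35 in the metformin group and 18.64 in the saline group. Pkd1 read 7.34 to 7.58 in the metformin group and 6.67 to 7.16 in the saline group. It was higher in the metformin group by 0.65 ± 0.15 (SE, n = 3 each, limma adjusted p = 0.0317), a call that ended in 4 of the 6 fits without 1 array (up to 0.113) and under median centring (0.0592). The transgene itself has no group without it to be checked against.

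Metformin kidneys had lower transcript levels of 8 of the 45 proteasome genes and higher levels of 0 (limma, Benjamini-Hochberg adjusted p under 0.05 over 22086 genes). The genes that fell were the base chaperones Psmd5 and Psmd9, the regulatory subunits Psmd12, Psmd2, Psmd7 and Psmc4, and the core subunits Psma2 and Psma1. The 8 make 17.8% of the members tested, against 15.8% of all genes called in either direction. By direction, 9.08% of all genes were called lower and 6.71% higher. Among the 14763 protein-coding genes 11.8% were called lower and 4.34% higher. In either direction the members' share was near the background, and all of their calls were lower. Psmd13 and Psma6 were the 2 members above 0 with an unadjusted p under 0.05 (limma), beside 11 below 0. These 13 of the 45 are a smaller share than the 32.1% of all genes past that level. Over all genes 2006 were lower and 1483 higher in the deposited values, 2713 lower and 913 higher after median centring, and 3806 lower and 993 higher after quantile normalization. The members lower were then 9 and 11, with 0 higher in both.

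The median difference, metformin minus saline, was -0.09 over the 45 members, against 0.02 over all genes tested and -0.01 over protein-coding genes. After median centring it was -0.18, against -0.07 over all genes. With 1 array left out the members' median lay between -0.16 (without metformin replicate 2) and -0.05 (without saline replicate 1), and was also -0.05 without metformin replicate 1 and -0.15 without saline replicate 2. Of the members 30 lay below 0 (25 without metformin replicate 1), where 47.1% of all genes and 51.5% of protein-coding genes did. The 3 metformin arrays lay wholly below the 3 saline arrays for 14 members and wholly above them for 4, which is 40% of the members against 37.3% of all genes. Of all genes 19.4% lay wholly below and 17.8% wholly above. Most differences were small: 33 members lay within 0.25 of 0 on the log2 scale. The median spread within a group was 0.13 log2 units for the members and 0.15 for all genes.

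**Figure D1:**
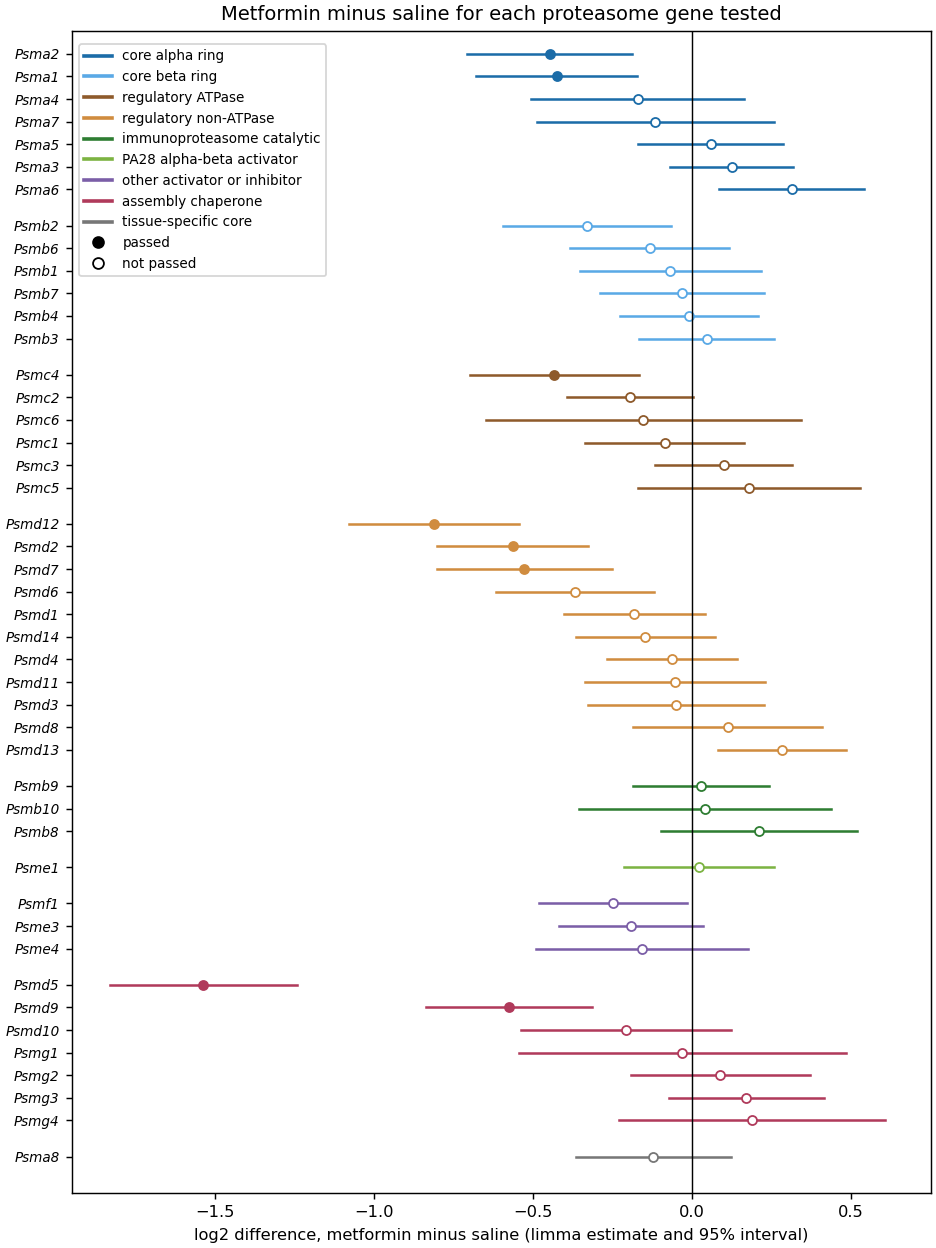
Log2 difference, metformin minus saline, of each of the 45 proteasome genes tested (points, filled where the adjusted p was under 0.05) with its 95% interval from limma (bars), grouped and coloured by role. The 8 filled points all lie left of 0, Psmd5 farthest at -1.54, and Psmb8, Psmb9, Psmb10 and Psme1 lie between 0.02 and 0.21 in the deposited values (Psmb9, Psmb10 and Psme1 fall below 0 after rescaling).

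The assembly chaperones held the member with the greatest difference. Psmd5 encodes S5b, which in mammals holds ATPases of the base before the regulatory particle is complete and whose yeast counterpart Hsm3 binds the ATPase Rpt1. Its log2 levels were 9.59, 9.89 and 9.79 in the metformin group, against 11.39, 11.39 and 11.10 in the saline group. All 3 metformin arrays were more than a log2 unit below the lowest saline array. The difference was -1.54 ± 0.13 (SE, n = 3 each, limma adjusted p = 0.00667), which puts the metformin mean at 34.5% of the saline mean. It was the 58th greatest fall among the 22086 genes and 10th by p. The call held without any single array (highest adjusted p 0.0293).

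Psmd9 encodes p27, a chaperone whose yeast counterpart Nas2 binds the ATPase Rpt5. Its levels were 5.78, 5.89 and 5.66 in the metformin group, against 6.51, 6.31 and 6.25 in the saline group. The groups did not overlap, and the difference was -0.58 ± 0.11 (SE, n = 3 each, limma adjusted p = 0.0186). The call ended without metformin replicate 1, metformin replicate 3 or saline replicate 1, where the adjusted p reached 0.0689. Psmd10 encodes gankyrin, whose yeast counterpart Nas6 binds Rpt3. It gave -0.21 with overlapping groups and did not pass (limma adjusted p = 0.360). Of the base chaperones 2 of 3 genes were lower, where 9.08% of all genes and 11.8% of protein-coding genes were, and the median was -0.58.

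The core chaperones, which guide assembly of the alpha ring, had 0 of 4 genes called by limma and 0 with an unadjusted p under 0.05. Their median was 0.13, and 0.04 after median centring or 0.0025 after quantile normalization. The differences were -0.03 for Psmg1, 0.09 for Psmg2, 0.17 for Psmg3 and 0.19 for Psmg4, which encode PAC1 to PAC4. Psmg2 lay below 0 after median centring and Psmg4 after quantile normalization. Psmg3 alone among them had groups that did not overlap. Psmg3 lay near the filter on low values. Psmg4 had levels of 6.55, 6.73 and 6.13 in the metformin group, against 6.48, 6.32 and 6.04 in the saline group, with overlap. Whether the base and core chaperones differed from each other was not tested.

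The promoters of Psmd5, Psmd12 and Psma2 are shown because these genes had the greatest falls of the chaperones, the lid and the core. That of Psmd9, which also fell, was added because it held a match, so its matches are no result. Each line gives the 250 bases before the start of the transcript, from the start's own strand, taken from RefSeq on GRCm38.p6. Psmd5 is at chr2:34870963-34871212 (minus strand), Psmd12 at chr11:107479278-107479527 (plus), Psmd9 at chr5:123227940-123228189 (plus) and Psma2 at chr13:14612992-14613241 (plus). Capitals mark matches, on either strand, to TGACNNNGC (the core of the antioxidant response element, which NRF1 and NRF2 bind), CCAAT, the core of the interferon-stimulated response element (ISRE, a doubled GAAA) or TTCNNNGAA (the core of the gamma-activated sequence).
Psmd5: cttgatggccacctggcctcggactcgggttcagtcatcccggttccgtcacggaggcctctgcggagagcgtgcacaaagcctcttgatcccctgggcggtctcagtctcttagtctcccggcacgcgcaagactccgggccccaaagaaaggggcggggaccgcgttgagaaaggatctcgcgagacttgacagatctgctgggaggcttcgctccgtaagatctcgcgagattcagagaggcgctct
Psmd12: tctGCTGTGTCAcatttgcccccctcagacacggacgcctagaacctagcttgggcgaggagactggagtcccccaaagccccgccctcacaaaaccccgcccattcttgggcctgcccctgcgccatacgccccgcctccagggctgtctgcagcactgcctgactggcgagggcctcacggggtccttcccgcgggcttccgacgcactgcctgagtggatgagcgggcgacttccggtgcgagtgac
Psmd9: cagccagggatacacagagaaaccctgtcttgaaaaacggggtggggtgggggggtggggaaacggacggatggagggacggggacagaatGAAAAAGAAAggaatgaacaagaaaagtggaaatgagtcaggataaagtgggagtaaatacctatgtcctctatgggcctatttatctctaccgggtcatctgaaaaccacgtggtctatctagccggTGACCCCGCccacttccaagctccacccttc
Psma2: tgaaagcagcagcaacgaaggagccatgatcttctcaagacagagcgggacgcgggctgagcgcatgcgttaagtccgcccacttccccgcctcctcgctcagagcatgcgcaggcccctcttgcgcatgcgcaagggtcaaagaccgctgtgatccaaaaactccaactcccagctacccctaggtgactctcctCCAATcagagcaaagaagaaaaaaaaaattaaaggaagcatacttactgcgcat

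In these bases the Psmd5 promoter held none of the 4 motifs. Psmd12 held TGACNNNGC in reverse at -247 to -239, counted from the start. Psmd9 held TGACNNNGC as written at -31 to -23 and the ISRE core at -159 to -150. Psma2 held CCAAT at -54 to -50. No match overlapped another. No motif of those searched stood in all 4 promoters.

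Windows of 300 bases, with 50 after the start, were held for 37 of the 45 members, as 39 windows, against 32851 in the table. Those not held were Psma8, Psmb1, Psmb2, Psmb7, Psmc3, Psmd3, Psmd7 and Psmg2. TGACNNNGC stood in 12.8% of the members' windows and in 12.4% of all. CCAAT stood in 33.3% against 37.4%, and TTCNNNGAA in 7.69% against 8.3%. The ISRE core stood in 12.8%, or 5 windows, against 3.44%. These were the windows of Psme1, Psmd9, Psmg4, Psmb3 and Psmd4, and 0 of 3 windows of the immunoproteasome catalytic genes held it. These are matches of letters, not bound sites.

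The regulatory particle had 4 of its 17 genes lower and 0 higher (limma), with a median of -0.15 and 13 genes below 0. That is 23.5% lower, against 9.08% of all genes and 11.8% of protein-coding genes, a description without a test. Leaving out 1 array gave 1 to 3 genes lower and medians between -0.17 and -0.09. Those that fell were 2 of 8 lid subunits, 1 of 6 ATPases and the base scaffold Psmd2. Psmd12 encodes Rpn5, a scaffold subunit of the lid. Its levels were 11.66, 11.78 and 11.77 in the metformin group, against 12.72, 12.36 and 12.56 in the saline group. The groups lay apart, by -0.81 ± 0.12 (SE, n = 3 each, limma adjusted p = 0.00864), and the metformin mean was 57.0% of the saline mean. With any array left out the call held (highest adjusted p 0.0366).

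Psmd2 encodes Rpn1, the base scaffold where ubiquitin shuttle proteins dock. It read 11.08, 11.26 and 11.09 in the metformin group, against 11.60, 11.79 and 11.74 in the saline group, and no array crossed between groups. It fell by 0.56 ± 0.10 (SE, n = 3 each, limma adjusted p = 0.0153), a call that ended only without metformin replicate 1 (0.0531). Psmd7 encodes Rpn8, the partner of the deubiquitinase Rpn11. It read 12.26, 12.21 and 12.11 in the metformin group, against 12.93, 12.56 and 12.68 in the saline group, again with every metformin array lower. It fell by 0.53 ± 0.12 (SE, n = 3 each, limma adjusted p = 0.0273), and the call held in only the fit without saline replicate 2 among the 6 that leave out an array (up to 0.0820). Psmc4 encodes the ATPase Rpt3. It read 9.94, 10.06 and 9.84 in the metformin group, against 10.54, 10.37 and 10.24 in the saline group, with no overlap. It fell by 0.43 ± 0.11 (SE, n = 3 each, limma adjusted p = 0.0426), and its call ended without any 1 array (0.0508 to 0.134) and with an intensity trend in the fit (0.0501).

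**Figure D2:**
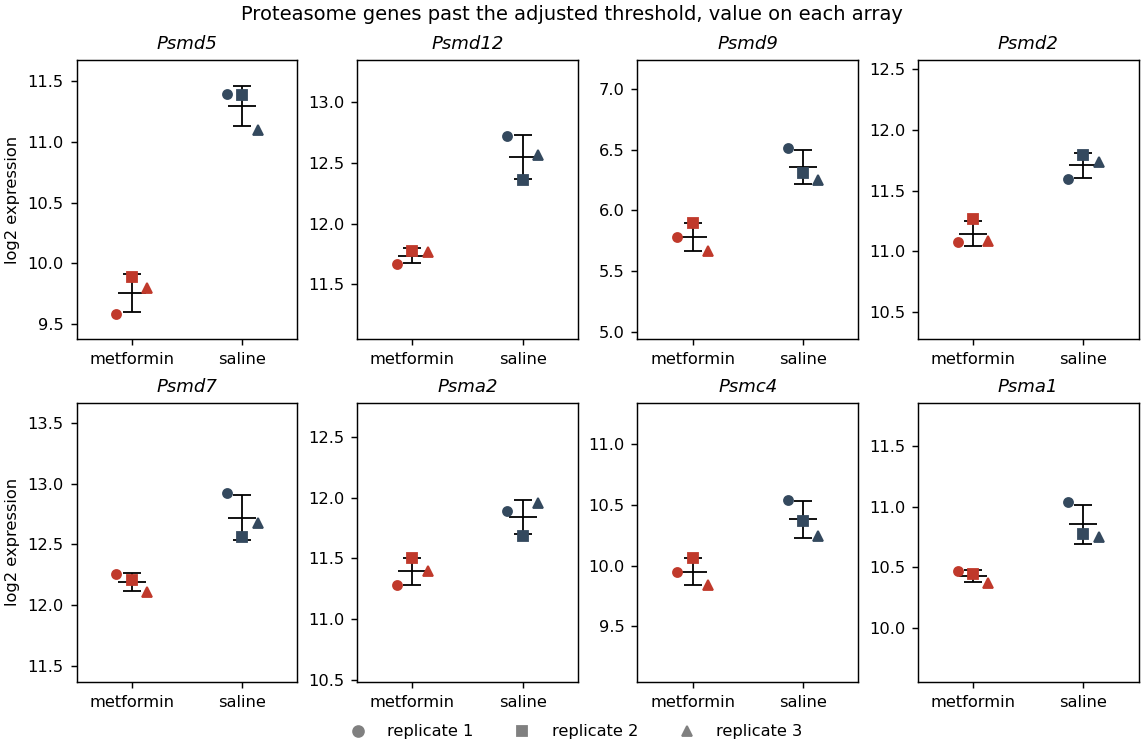
Log2 level of the 8 proteasome genes that passed the test in each of the 3 metformin arrays (left) and 3 saline arrays (right) of a panel, with bars at the mean and SD. In every panel the metformin points lie below the saline points, and the gap is greatest for Psmd5, with 9.59 to 9.89 in the metformin group and 11.10 to 11.39 in the saline group.

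Among the other lid genes Psmd6, which encodes Rpn7, came closest to the threshold. It gave -0.37 ± 0.11 (SE, n = 3 each, limma adjusted p = 0.0555) with groups that did not overlap. Psmd13, which encodes Rpn9, lay the other way. Its levels were 8.11, 8.13 and 8.01 in the metformin group, against 7.79, 7.80 and 7.81 in the saline group. Every metformin array was higher, by 0.28 ± 0.09, and the test was not passed (limma adjusted p = 0.0635). Psmd14, the deubiquitinase Rpn11 that removes ubiquitin chains at the entry to the core, gave -0.15. Psmd11, Psmd3 and Psmd8, which encode the lid subunits Rpn6, Rpn3 and Rpn12, lay between -0.05 and 0.11.

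In the base, Psmd1 encodes the scaffold Rpn2 and gave -0.18 with groups that did not overlap (limma adjusted p = 0.236). Psmd4, the ubiquitin receptor Rpn10, gave -0.06. The 5 ATPase genes that did not pass were on both sides of 0: Psmc2 gave -0.19, Psmc6 -0.15, Psmc1 -0.09, Psmc3 0.10 and Psmc5 0.18. These ATPases form a hexamer with Psmc4 in equal number. Only Psmc2 of the 5 had groups that did not overlap, at 10.72, 10.83 and 10.76 in the metformin group and 10.94, 10.98 and 10.97 in the saline group. Psmc6 was highest in replicate 1 of both groups, at 13.38 in metformin replicate 1 and 13.71 in saline replicate 1.

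The core had 2 of its 13 genes lower and 0 higher (limma), with a median of -0.07. That is 15.4% lower, against 9.08% of all genes and 11.8% of protein-coding genes, a description without a test. The median's direction rested on single arrays: it was 0.0016 when metformin replicate 1 was left out, -0.0085 in the fit lacking saline replicate 1 and -0.16 in that lacking metformin replicate 2. Both genes called lower lay in the alpha ring, which gates entry to the core. Psma2 encodes alpha2 and read 11.28, 11.51 and 11.40 in the metformin group, against 11.89, 11.69 and 11.95 in the saline group. The groups did not overlap, at -0.45 ± 0.11 (SE, n = 3 each, limma adjusted p = 0.0364). In a fit blocked on replicate number the call ended (0.05002). Psma1 encodes alpha6 and read 10.47, 10.45 and 10.37 in the metformin group, against 11.04, 10.77 and 10.75 in the saline group. All metformin arrays were lower, at -0.43 ± 0.11 (SE, n = 3 each, limma adjusted p = 0.0398). Among the 6 fits without 1 array only the one lacking saline replicate 2 kept the calls of Psma2 and Psma1. The highest adjusted p in these fits was 0.119 for Psma2 and 0.112 for Psma1.

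Psma6, which encodes alpha1, had the highest positive difference of any member. It read 11.99, 12.02 and 11.83 in the metformin group, against 11.71, 11.64 and 11.56 in the saline group. The groups did not overlap, but the difference of 0.31 ± 0.10 did not pass (SE, n = 3 each, limma adjusted p = 0.0683). Psma3, which encodes alpha7, was likewise wholly higher, by 0.12, and did not pass (0.351). Psma4, Psma7 and Psma5, which encode alpha3, alpha4 and alpha5, had overlapping groups and gave -0.17, -0.12 and 0.06, the last of which was below 0 after median centring or quantile normalization. Subunits of a ring are used in equal number, and the alpha ring's differences ran between -0.45 and 0.31.

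In the beta ring 0 of 6 genes passed (limma), and 1 had an unadjusted p under 0.05. That gene was Psmb2, which encodes the structural subunit beta4. It read 8.11, 8.39 and 8.18 in the metformin group, against 8.61, 8.64 and 8.43 in the saline group. Its groups did not overlap, at -0.33 ± 0.11 (SE, n = 3 each, limma adjusted p = 0.0891). The structural genes Psmb1, Psmb4 and Psmb3 lay between -0.07 and 0.05, and Psmb3 was below 0 after either rescaling. The catalytic genes Psmb6 and Psmb7 gave -0.13 and -0.03.

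The immunoproteasome genes did not pass the test. Of Psmb8, Psmb9, Psmb10 and Psme1, 0 were called by limma and 0 had an unadjusted p under 0.05. Psmb8 encodes beta5i and read 5.76, 5.84 and 5.75 in the metformin group, against 5.65, 5.77 and 5.30 in the saline group. Only saline replicate 3 was well apart, and the difference was 0.21 ± 0.13 (SE, n = 3 each, limma adjusted p = 0.323). Psmb9 encodes beta1i and read 5.21, 5.23 and 5.18 in the metformin group, against 5.26, 5.20 and 5.07 in the saline group. Those groups overlapped, with a difference of 0.03 (95% interval -0.19 to 0.24). Psmb10 encodes beta2i and read 6.47, 6.55 and 6.37 in the metformin group, against 6.41, 6.78 and 6.09 in the saline group. The saline arrays bracketed the metformin arrays, with an SD of 0.34 in the saline group against 0.09 in the metformin group, and the difference was 0.04 (-0.36 to 0.44). Psme1, the alpha subunit of PA28, gave 0.02 (-0.21 to 0.26).

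Saline replicate 3 was the lowest array for all 4 of these genes. Without it the differences were -0.04 for Psme1, -0.03 for Psmb9 and -0.13 for Psmb10, and the same 3 lay below 0 when each array was centred on its median or quantile normalized. Markers of macrophages, which express immunoproteasome genes, had their lowest summary in the same array. The mean level of 12 macrophage genes was 9.03, 8.84 and 8.49 in the metformin group, against 7.97, 8.75 and 7.47 in the saline group. Among the 12, 1 passed as higher (Lyz2, 1.99), which is 8.33%, against 6.71% of all genes and 4.34% of protein-coding genes. Of 11 lymphocyte genes 0 passed (limma) and 2 had an unadjusted p under 0.05. Their mean level was 5.29 to 5.41 in the metformin group and 5.15 to 5.36 in the saline group. The part of these cells in the immunoproteasome values was not tested, and in whole tissue fewer cells of a type and less RNA per cell cannot be told apart.

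Beta1i takes the place of beta1, the caspase-like subunit of Psmb6, and beta2i that of beta2, the trypsin-like subunit of Psmb7. Psmb6 read 9.68, 9.97 and 9.70 in the metformin group, against 9.95, 9.87 and 9.92 in the saline group. Psmb7 read 11.99, 12.34 and 12.16 in the metformin group, against 12.24, 12.19 and 12.16 in the saline group. Both overlapped between groups. The difference within an array of Psmb9 minus Psmb6 changed by 0.16 between groups (exact permutation test over the arrays, two-sided, p = 0.3, adjusted 0.6). That of Psmb10 minus Psmb7 changed by 0.07 (exact p = 0.8, adjusted 0.8). With 3 arrays against 3 the smallest p this test can give is 0.10. The pair of Psmb8 and Psmb5 was not analysed here, since Psmb5 shares its cluster with Mir686.

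Psmb8 and Psmb9 lie beside Tap1 and Tap2, which carry peptides into the endoplasmic reticulum, in the order Psmb9, Tap1, Psmb8 and Tap2 on chromosome 17. Tap1 read 7.93, 7.88 and 7.74 in the metformin group, against 7.07, 7.56 and 7.12 in the saline group. Every metformin array was higher, by 0.60 ± 0.14 (SE, n = 3 each, limma adjusted p = 0.0343). The call ended in 5 of the 6 fits without 1 array (up to 0.117), all but that without saline replicate 2, and under median centring (0.0649) and quantile normalization (0.0508). Tap2 gave 0.17 (0.265) and Irf1, the interferon-induced transcription factor that acts on these promoters, 0.33 (0.235). In the whole list of interferon and peptide loading genes 1 of 10 tested was higher and 0 lower. That is 10%, against 6.71% of all genes and 4.34% of protein-coding genes called higher. The list had a median of 0.13. That median was 0.04 after median centring, -0.03 after quantile normalization and 0.03 without saline replicate 3. Tapbp, which holds MHC class I ready for peptide, gave -0.30 with overlap (0.315).

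**Figure D3:**
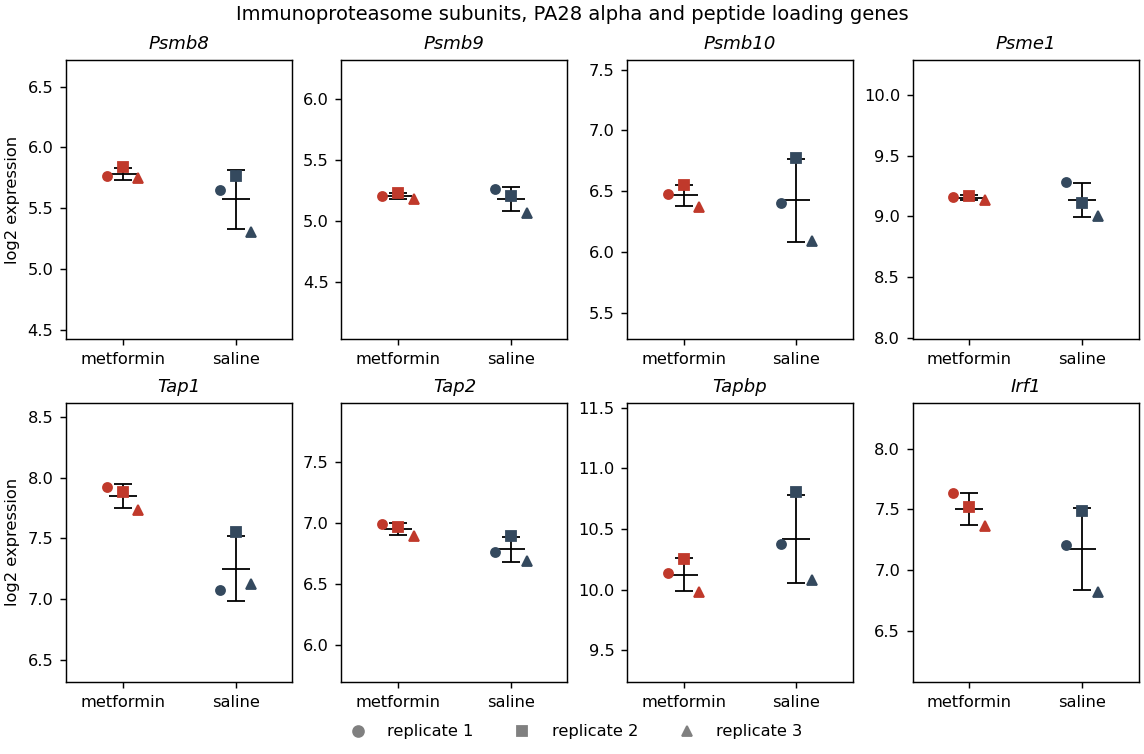
Log2 levels of the immunoproteasome genes Psmb8, Psmb9 and Psmb10, of Psme1, and of the peptide loading and interferon genes Tap1, Tap2, Tapbp and Irf1, with 3 metformin arrays left of 3 saline arrays in each panel and bars at the mean and SD. The groups overlap in the 4 proteasome panels, where saline replicate 3 is lowest (5.30 for Psmb8), and do not overlap for Tap1 and Tap2.

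The remaining activators and the inhibitor did not pass, with 0 of 3 called by limma and 1 unadjusted p under 0.05. Psmf1, the proteasome-binding inhibitor PI31, had the greatest difference. It read 7.57, 7.81 and 7.78 in the metformin group, against 7.97, 8.02 and 7.91 in the saline group. The groups did not overlap, at -0.25 ± 0.10 (SE, n = 3 each, limma adjusted p = 0.134). Psme3, the nuclear activator PA28 gamma, gave -0.19 and was also lower in every metformin array. Psme4, the activator PA200, gave -0.16 with overlap. Psma8, the form of alpha4 found in spermatogenesis, gave -0.12 at a mean of 4.30. The untested Psmb11, the thymus form of beta5, averaged 3.36. Psme3ip1 and Psmc3ip gave -0.19 and 0.05.

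**Figure D4:**
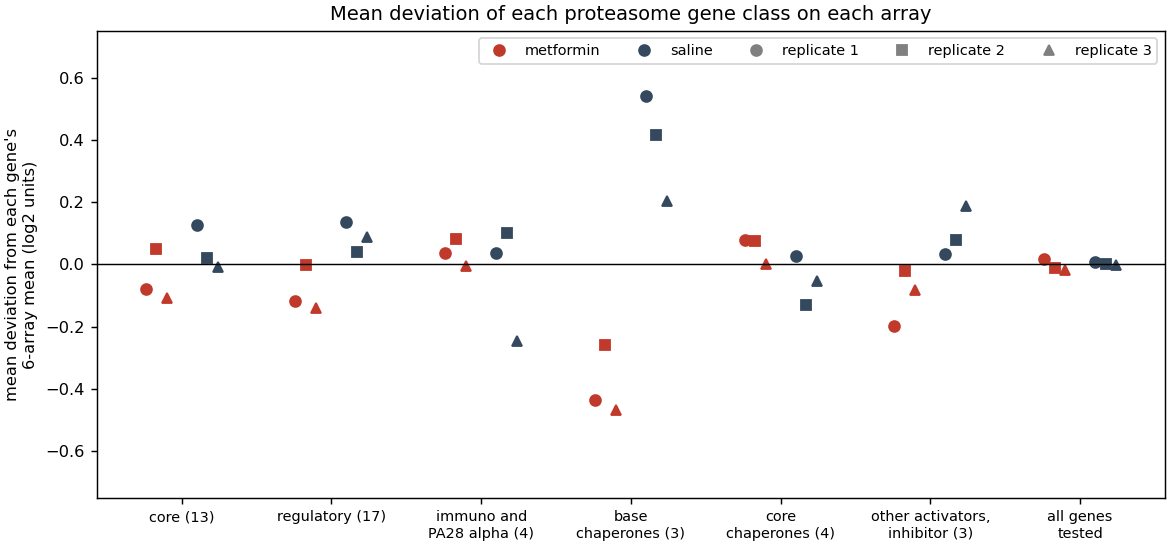
Mean deviation of each role's genes from the gene's own mean over the 6 arrays (log2), per array, metformin arrays left of saline arrays, with all genes tested at the right. The base chaperones range from -0.47 to -0.26 in the metformin group and from 0.20 to 0.54 in the saline group, and the other roles lie between -0.25 and 0.19. The base chaperones are 3 genes, of which Psmd5 differed most (-1.54) and Psmd10 least (-0.21, with overlapping groups).

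Mean deviations of a role's genes were also taken per array. The base chaperones gave -0.44, -0.26 and -0.47 in the metformin group, against 0.54, 0.42 and 0.20 in the saline group. Of these 3 genes Psmd5 differed by -1.54, Psmd9 by -0.58 and Psmd10 by -0.21, so the mean rests most on Psmd5. The 17 regulatory genes gave -0.12, -0.0026 and -0.14 in the metformin group, against 0.14, 0.04 and 0.09 in the saline group. In both roles all metformin arrays were lower than all saline arrays. The 13 core genes gave -0.08, 0.05 and -0.11 in the metformin group, against 0.13, 0.02 and -0.01 in the saline group. There metformin replicate 2 lay above 2 of the saline arrays.

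Genes whose products work with the proteasome were also counted. Of 16 such genes tested, among them shuttles, deubiquitinases and segregase partners, 1 was lower and 0 higher, with a median of -0.10. That is 6.25%, against 9.08% of all genes called lower. After median centring or quantile normalization 3 were lower and 0 higher, with Nploc4 and Ube3c added. They make 18.8%. Of all 22086 genes 2713 were called lower after median centring and 3806 after quantile normalization. In either direction 16.4% and 21.7% of all genes were called. With the stricter filter 2 were lower, or 12.5%, where 2166 of all 17584 genes were called lower and 21.4% in either direction. The gene lower in the deposited values was Ufd1, a cofactor with which the segregase VCP extracts ubiquitinated proteins. It read 9.01, 9.31 and 9.12 in the metformin group, against 9.79, 9.80 and 9.72 in the saline group. All metformin arrays were lower, by -0.62 ± 0.10 (SE, n = 3 each, limma adjusted p = 0.0129), and the call ended without saline replicate 1 (0.0551). Its partner Nploc4 gave -0.31 with groups apart and did not pass (0.0541). The shuttle Rad23b gave 0.38 (0.0752), higher in every metformin array, and passed as higher in the fit blocked on replicate number (limma adjusted p = 0.0365). The proteasome ligase Ube3c gave -0.29 (0.0823). Uba6, an activating enzyme for ubiquitin and the only one of 6 ubiquitin and activating enzyme genes tested, gave -0.29 (0.147).

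NRF1, encoded by Nfe2l1, is the transcription factor that raises proteasome genes when degradation falls short, after Ngly1 strips its sugars. Nfe2l1 gave -0.03, at 12.29 to 12.34 in the metformin group and 12.34 to 12.37 in the saline group. Of the 5 genes of this axis tested 2 were lower. That is 40%, against 9.08% of all genes and 11.8% of protein-coding genes, given without a test on 5 genes. Ngly1 read 8.81, 8.89 and 8.97 in the metformin group, against 9.44, 9.29 and 9.29 in the saline group. The groups did not overlap, at -0.45 ± 0.10 (SE, n = 3 each, limma adjusted p = 0.0240), and the call ended in 3 of the 6 fits without 1 array, without metformin replicate 1, metformin replicate 2 or saline replicate 1 (up to 0.0869). Sel1l, part of the complex that moves proteins out of the endoplasmic reticulum, gave -0.39 ± 0.10 (limma adjusted p = 0.0423). Its call ended without any 1 array (0.0783 to 0.116) and with an intensity trend (0.0534). Nfe2l2, which encodes NRF2, gave -0.29 with overlap (0.467).

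Some markers of other cell types also differed between the groups. Over all genes 9.08% were called lower, and 11.8% of protein-coding genes were. Of 12 proximal tubule genes 5 were lower, or 41.7%, and all 12 lay below 0. Their mean levels were 14.5 to 15.3 in the metformin group and 15.5 to 15.9 in the saline group. Of 7 adipocyte genes 2 were lower, or 28.6%, and Lep lay below the filter. The mean levels of the 7 were 5.24 to 5.41 in the metformin group and 6.05 to 8.76 in the saline group. Adipocyte levels were lowest of the saline arrays in replicate 3. Of 11 loop and distal genes 2 were lower, or 18.2%, and 4 lay above 0. Of 6 endothelial genes 2 were lower, or 33.3%, and 1 lay above 0. The part of these cells in the proteasome values was not tested.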

How the data were processed

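Total RNA of each kidney was labelled with biotin and hybridised to a 1-colour array, per the labels' protocols. The authors deposited log2 values per transcript cluster which per the submitters' processing notes came from RMA and the Transcriptome Analysis Console, version 4.0. Values run from 1.94 to 19.9, a range beyond that of a 16-bit scanner. How the scale came about was not checked, so folds and percentages hold on the deposited scale only. Of 65956 clusters, the platform annotation names 30604 with 1 symbol, and 22818 symbols were matched to RefSeq (GRCm38.p6), 827 of which changed. The lowest 33.3% of clusters by mean (at or under 4.03) were left out, and the highest-mean cluster per gene was kept (22086 genes, 266 with several). limma 3.58.1 in R 4.3.3 compared metformin with saline, two-sided, without covariates, with Benjamini-Hochberg adjustment over all genes, and was tested on simulated data. The number of arrays limits the precision. Alternatives were leaving out each array, the replicate number as a block, median centring, quantile normalization, other filters, cluster means, and limma's trend, robust and array weight options. Deviations of same-numbered arrays correlated at r = 0.12, 0.15 and 0.54, and metformin replicate 1 correlated more with saline replicate 2 (0.30) than with its own number. The tests printed are unpaired, and blocked values are given where they change a call. Members, lists, tests and named genes were chosen with earlier results of these data known. All members were nameable, and in other lists those past the threshold and up to 4 with the smallest p. Nfe2l1 and Uchl5 were named outside this rule, after their values were seen. Also outside it were the kidney markers Umod and Slc34a1, the untested Lep, and Pkd1, which is in no list. Gene order on chromosomes came from RefSeq's table.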

Additional observations from a re-analysis of the deposited data

Results flagged for a closer look

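One transcript cluster that lists Psme2b, Psme2 and Psme2b-ps was outside the comparisons above, because its probes are assigned to several genes. PA28 beta, the product of Psme2, pairs with the product of Psme1, and Psme2b is a near-identical copy. The cluster read 12.36, 12.00 and 12.11 in the metformin group, against 10.92, 11.08 and 11.36 in the saline group. All 3 metformin arrays were above all 3 saline arrays, with a difference of 1.04 log2 units. The difference was not tested, and the signal cannot be assigned to a gene. A second cluster, which lists Psme2 and Psme2b, differed by 0.03, and Psme1 itself by 0.02.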

How the results depend on the processing

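All 8 proteasome genes called lower kept their direction in the 15 alternatives, and 0 members were called higher in any of them. The count called lower was 2 to 7 when 1 array was left out, where all genes called ran between 842 (without saline replicate 1) and 3965 (without saline replicate 2), against 3489. It was 7 with the replicate number as a block and with an intensity trend, and 8 to 11 under the other alternatives. Only Psmd5 and Psmd12 passed in every alternative. Psmd6 also passed under median centring (0.0405), quantile normalization (0.0294), the stricter filter (0.0493) and array weights (0.0476). Psmb2 and Psmf1 passed under quantile normalization alone. In the fit blocked on replicate number, which the labels do not call a pairing, the call of Psma2 ended and no other member's call changed. Median centring moved the median difference of all genes to -0.07, and quantile normalization moved it to -0.10, against 0.02 in the deposited values.

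Of 703 values of single members under the alternatives 35 changed direction, in 17 members that were not called. With quantile normalization the differences were -0.14 for Psmb10 minus Psmb7, -0.084 for Psme1, -0.016 for Psmg4, -0.041 for Psma5, -0.15 for Psmb3, -0.093 for Psmb9, -0.17 for Psmb10, -0.11 for Psmc3ip and -0.013 for Psmc3. With median centring the differences were -0.069 for Psme1, -0.0025 for Psmg2, -0.031 for Psma5, -0.044 for Psmb3, -0.063 for Psmb9, -0.051 for Psmb10 and -0.039 for Psmc3ip. With array weights the differences were -0.0087 for Psme1 and -0.0198 for Psmc3ip. Over the fits without 1 array the ranges were -0.076 to 0.25 for Psmb10 minus Psmb7, -0.042 to 0.095 for Psme1, -0.23 to 0.13 for Psmg1, -0.23 to 0.044 for Psma7, -0.16 to 0.0016 for Psmb1, -0.12 to 0.053 for Psmb7 and -0.065 to 0.025 for Psmb4, and -0.027 to 0.071 for Psmb9, -0.13 to 0.22 for Psmb10, -0.059 to 0.12 for Psmc3ip, -0.32 to 0.069 for Psmc6, -0.17 to 0.018 for Psmd11 and -0.15 to 0.054 for Psmd3. The causes were not tested.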

Other observations

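Of the 2 clusters that list a proteasome pseudogene alone, Psmb6-ps had groups that did not overlap, at 4.45, 4.60 and 4.53 in the metformin group, against 4.78, 4.92 and 4.88 in the saline group. Psmb5-ps read 6.51, 6.81 and 6.60 in the metformin group, against 6.61, 6.51 and 6.73 in the saline group, with overlap. Both stood outside the symbol rule and were not counted among the members.

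Uchl5, a deubiquitinase bound to the regulatory particle, was highest in replicate 1 of both groups, as was Psmc6. Other genes shared this order, among them Psma1, Psma4, Psma7, Psmd7 and Usp14, and its share over all genes was not counted. Uchl5 read 11.41, 10.84 and 10.92 in the metformin group, against 11.82, 10.85 and 11.11 in the saline group.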
